A study of Cricetiscus sungorus with 216 samples.

Results

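Hcrt, Pmch, Gal, Penk and Tac1, 5 genes that encode precursors of hypothalamic neuropeptides, were followed through the hypothalamus of the Siberian hamster. They were taken as every row that carried 1 of these 5 symbols in the dorsomedial (DMH) and mediobasal (MBH) hypothalamus, with the paraventricular nucleus (PVN) taken separately and isoform rows summed. They are 5 of 21821 gene symbols in the DMH, 5 of 20156 in the MBH and 5 of 18960 in the PVN. All 5 were present in each of the 3 tables.

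Hcrt encodes prepro-orexin and Pmch encodes pro-melanin-concentrating hormone. Both are made by neurons of the lateral hypothalamus, where orexin neurons and melanin-concentrating hormone neurons are separate but intermingled populations that project widely and act on arousal, feeding and energy expenditure. Orexin neurons lie mainly in the perifornical area beside the dorsomedial nucleus, and melanin-concentrating hormone neurons extend into the zona incerta. Gal (galanin), Penk (proenkephalin) and Tac1 (the precursor of substance P and neurokinin A) are made by many kinds of neurons inside and outside the hypothalamus, so they carry no single address.

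The animals were adult males of 3 to 8 months, with no genetic alteration named. One group of 6 was held in long photoperiod (LP, 16 h of light; "LD" in the labels) and 8 groups of 6 were moved to short photoperiod (SP, 8 h of light; "SD" in the labels) for 4, 8, 12, 16, 20, 24, 28 or 32 weeks. Each of the 54 hamsters gave 1 library per dissection, taken as bilateral punches from brain sections, and polyA RNA was sequenced on nanopores after PCR of the cDNA. A library is thus 1 animal, and in these bulk samples fewer cells of a type and less RNA per cell cannot be told apart.

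Library size and quality set limits on everything that follows. Total counts ran from 149289 to 9084077 in the DMH, from 5996 to 13208364 in the MBH and from 159 to 998247 in the PVN. The number of gene symbols read was lowest in the DMH, where the median library held 8053 and 21 of 54 libraries held fewer than 5000, against 2 libraries in the MBH and 3 in the PVN. The scale factors from TMM normalization ranged from 0.0850 to 7.88 in the DMH, which is wide for a single tissue. Markers matched the labels only in part. The DMH libraries held little of the arcuate genes Agrp (above 0 in 12 libraries) and Npy (15). Other genes of the arcuate list were read in more DMH libraries, Tac2 in 27, Pomc in 34 and Cartpt in 38. The dorsomedial markers Npvf, Ppp1r17 and Grp were above 0 in only 9, 15 and 17 of 54 DMH libraries, and Cck in 44. The PVN libraries held high thalamic markers, with a summed median of 4054 CPM (read counts scaled to a common library size, here with TMM factors) over 4 genes, of which Tcf7l2 (median 3217 CPM) and Calb2 (785) made up most, Prkcd was at 5.09 and Tac1 is itself a member. Trh, a peptide of the paraventricular nucleus, was read in 51 PVN libraries at a median of 151 CPM. Sim1, another marker of that nucleus, was above 0 in only 14 of 54 PVN libraries. No PVN row carried the symbol Avp, Oxt or Crh, so these markers could not be checked. The PVN table used other isoform identifiers than the other tables, with 0 shared, so levels are compared only within a table or between DMH and MBH.

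Hcrt, the marker of orexin neurons, was read in 26 of 54 DMH libraries, 37 MBH libraries and 28 PVN libraries. In the DMH its lowest, median and highest CPM were 0, 0 and 11.7, in the MBH 0, 0.870 and 45.9, and in the PVN 0, 3.69 and 422. Most libraries were therefore at or near 0 and a few were far above the rest. The 5 highest libraries held 58.9% of the summed CPM in the DMH, 58.9% in the MBH and 63.8% in the PVN.

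Pmch, the marker of melanin-concentrating hormone neurons, was read more often, in 44 DMH, 52 MBH and 43 PVN libraries. Its CPM ran from 0 through a median of 7.98 to 99.5 in the DMH, from 0 through 11.5 to 235 in the MBH and from 0 through 85.4 to 2006 in the PVN. The 5 highest libraries held 46.1%, 45.5% and 53.5% of the sum in the same order. Pmch thus varied over wide ranges in each dissection. Its highest library was a 24-week animal in each of them. Ranks 2 and 3 of 54 were from 8 and 16 weeks in the DMH, from LP and 24 weeks in the MBH, and both from 4 weeks in the PVN. The 24-week group had the highest group mean in the MBH (81.1 CPM) and the PVN (661), and the 16-week group in the DMH (26.5).

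Galanin, enkephalin and tachykinin transcripts behaved differently in the MBH. Gal (median 46.5 CPM, highest 135), Penk (36.4 and 90.8) and Tac1 (44.3 and 106) were each read in 52 or 53 of 54 MBH libraries, and their 5 highest libraries held only 19.3%, 19.6% and 18.4% of the sum. In the PVN the medians were 46.9 CPM for Gal, 115 for Penk and 42.3 for Tac1, read in 49, 52 and 47 libraries. In the DMH they were sparse, with Gal at a median of 0.233 CPM in 29 libraries, Penk at 2.20 in 32 and Tac1 at 4.30 in 37. Gal in the DMH resembled Hcrt in how it was spread, since 5 libraries held 59.0% of its sum.

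**Figure D1:**
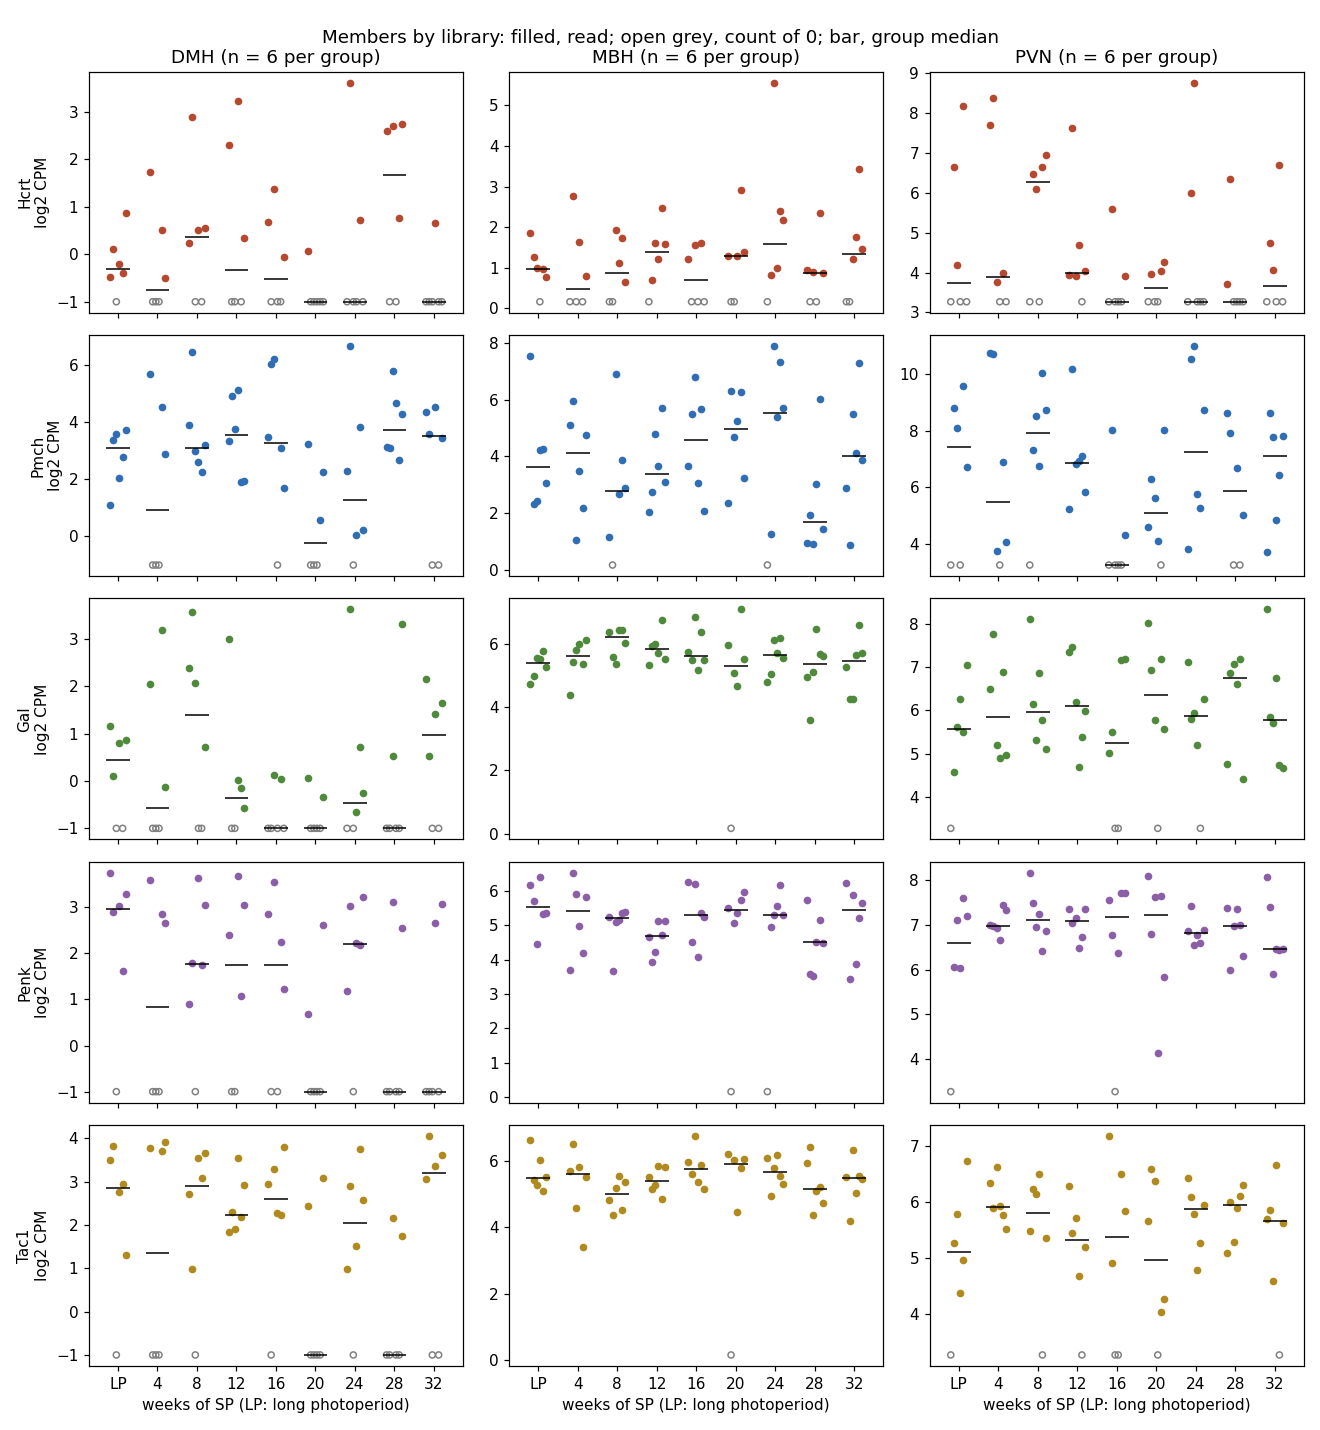
Each point is 1 library; the y axis is log2 CPM (prior count of 2) with its own scale in each panel, the x axis is LP and the weeks of SP, rows are the 5 genes and columns the 3 dissections, filled points have counts, open grey points have a count of 0, and bars are group medians. Hcrt sits at a count of 0 in 28 of 54 DMH libraries, while Gal, Penk and Tac1 form compact bands in the MBH apart from 1 or 2 libraries at 0.

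The spread between animals of the same group was measured as the pooled within-group standard deviation of log2 CPM and set beside gene symbols of like level in the same table. For Pmch it was 2.15 in the DMH, 2.09 in the MBH and 2.41 in the PVN, at the 72.5th, 97.2th and 100th percentile. For Hcrt it was 1.32, 1.06 and 1.66, at the 82.5th, 75.7th and 99.8th percentile. The lateral hypothalamic pair was therefore among the most variable genes of its level in the PVN, and Pmch also in the MBH. Gal (1.01), Penk (1.28) and Tac1 (1.00) in the MBH stood at the 39.9th, 65.8th and 38.3th percentile, near the middle of genes of their level.

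In 9 DMH libraries none of the 5 genes was read. They were replicates 2, 3 and 4 at 4 weeks of SP, replicates 2, 3 and 4 at 20 weeks, replicate 3 at 24 weeks and replicates 3 and 5 at 32 weeks. These libraries held 785 to 3988 gene symbols, and their totals reached 2992211 counts, so the absence went with few genes read rather than with few counts alone. In 20 DMH libraries all 5 were read, against 37 in the MBH and 25 in the PVN. In the PVN the 2 libraries without any of the 5 were LP replicate 1, with 159 counts, and replicate 3 at 16 weeks, with 22219. A count of 0 in these libraries limits the level only weakly, and the part of library quality in the values at 0 was not tested.

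The first question of the design is whether these peptides followed the photoperiod. None of the 5 passed the test across the 9 groups in any dissection (edgeR quasi-likelihood F-test, false discovery rate 0.1). Over all gene symbols the same test called 4.64% in the DMH, 0.442% in the MBH and 0.0158% in the PVN. At an unadjusted p below 0.05 there was 1 member in the DMH, 1 in the MBH and 2 in the PVN, where 14.7%, 8.01% and 6.17% of all gene symbols were below it, and DESeq2 called 0.

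Hcrt came nearest in each dissection. Its LP libraries ran from 0 through a median of 0.310 to 1.32 CPM in the DMH, and the highest median of an SP group was 3.36 CPM at 28 weeks, where values ran from 0 to 6.22. The groups overlapped in every week. The edgeR fit over the 54 libraries gave an unadjusted p = 0.0323 in the DMH, 0.00335 in the MBH and 0.00362 in the PVN, with edgeR adjusted p = 0.268, 0.230 and 0.443. Under the version 4 form of the edgeR test the adjusted p was 0.0463 in the MBH and 0.0670 in the PVN, so the side of the threshold depended on the form of the test. With the replicate number as a block, Hcrt (edgeR adjusted p = 0.00919) and Pmch (0.0804) passed in the PVN. Hcrt also passed in the MBH with library totals as the only scaling and in the DMH without replicate number 2 (edgeR adjusted p = 0.0752).

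Single SP weeks against LP showed the same pattern of few animals carrying a group. For Hcrt in the MBH, the LP values were 0, 0.847 and 2.52 CPM (lowest, median, highest) and those at 24 weeks 0, 2.14 and 45.9. The log2 fold change at 24 weeks was 3.26 (SE 1.00, edgeR unadjusted p = 0.00203, adjusted p = 0.802). It fell to 0.97 without the animals of replicate number 3, whose 24-week animal holds the value of 45.9. In the PVN, Hcrt was at 0, 4.32 and 278.02 CPM in LP and at 0, 2.97 and 9.55 at 20 weeks, with a log2 fold change of -4.58 (SE 1.41, edgeR unadjusted p = 0.00185, adjusted p = 1). In the DMH the log2 fold change at 24 weeks was 2.37, and it was -0.65 without the animals of replicate number 2, among them the highest DMH library. In the PVN too the groups overlapped, with 3 of 6 LP libraries and 3 of 6 libraries at 20 weeks at a count of 0.

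Pmch, which shares the lateral hypothalamus with Hcrt, had LP values of 1.63, 8.10 and 12.5 CPM in the DMH. At 20 weeks they were 0, 0.486 and 8.80, and at 24 weeks 0, 2.54 and 99.5. In the MBH the LP values were 3.86, 12.3 and 186, against 0, 45.7 and 235 at 24 weeks and 0.748, 2.15 and 63.8 at 28 weeks. The 24-week group thus had a low median and the highest library in the DMH, and the highest median and the highest library in the MBH. Its mean log2 change over the 8 SP weeks was 1.04 (SE 0.83) in the DMH, -0.38 (SE 0.78) in the MBH and -0.57 in the PVN, none past the threshold in edgeR. When animals of 1 replicate number were left out, the MBH value moved between -1.22 and 1.74 and the PVN value between -1.32 and 0.05, so even the sign rested on few animals in both. LP replicate 1, at 186 CPM, was 1 such animal.

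Gal in the MBH was read in 53 of 54 libraries. Its LP libraries lay at 25.2, 41.2 and 53.8 CPM and those at 8 weeks at 39.9, 73.6 and 86.0, which overlapped in their ranges. The log2 fold change at 8 weeks was 0.78 (SE 0.40, edgeR unadjusted p = 0.0549, adjusted p = 0.969). A 2-sided exact permutation test of the mean CPM gave p = 0.0195 at 8 weeks and 0.0455 at 12 weeks. Over the 8 weeks Gal was 0.45 higher on the log2 scale (SE 0.31) in the MBH, which did not pass the edgeR test.

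Penk went the other way in the MBH. LP libraries ran from 20.7 through 45.2 to 82.6 CPM, those at 12 weeks from 14.2 through 24.6 to 33.7 and those at 28 weeks from 10.5 through 21.4 to 52.4. The log2 fold changes were -1.02 (SE 0.45) at 12 weeks and -0.99 at 28 weeks, with edgeR unadjusted p = 0.0278 at 12 weeks and adjusted p = 0.943. All 6 libraries of the 12-week group lay below the LP median, and their highest value was the lowest maximum of the 9 groups. The 8-week libraries also all lay below the LP median, with a highest value of 40.7 CPM. The log2 fold change at 8 weeks was -0.57 (SE 0.45, edgeR unadjusted p = 0.208). Tac1, which followed Penk across animals, was at 33.3, 43.2 and 97.0 CPM in LP and at 19.5, 31.2 and 45.3 at 8 weeks, with an exact permutation p = 0.0476.

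In all, 40 exact permutation tests of an SP week against LP were made in each dissection, with 6 animals a side, where the smallest p that can be reached is 0.00216. The p was below 0.05 in 3 of 40 in the DMH, 4 of 40 in the MBH and 0 of 40 in the PVN, where the smallest was 0.119. The DMH ones were Penk at 20 weeks (p = 0.0281), Tac1 at 28 weeks (0.0411) and Pmch at 20 weeks (0.0498), all 3 lower in SP, in exact permutation tests not adjusted for number. Library make-up moved with these groups. The median number of gene symbols read in the DMH was 11183 in LP, the highest of the 9 groups, against 3684 at 20 weeks and 4082 at 28 weeks, and the median of the neuronal gene Snap25 was 98.9 CPM against 21.7 and 50.2, and their part in these differences was not tested. In none of the 120 comparisons did the groups fail to overlap, and over all gene symbols and the 8 weeks 0.043% of comparisons in the DMH, 0.12% in the MBH and 0.0752% in the PVN did not overlap. No single week gave a called member in any dissection by edgeR or DESeq2. At an unadjusted edgeR p below 0.05 there were 4 in the DMH, 3 in the MBH and 3 in the PVN, of 40 each, where 6.85%, 4.6% and 3.73% of the comparisons over all gene symbols were below it, and the weekly test called 0.00401%, 0.0093% and 0% of the comparisons over all gene symbols.

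Averaged over the 8 SP weeks, no member differed from LP by the edgeR test, which called 3.95% of gene symbols in the DMH, 0.814% in the MBH and 0.0211% in the PVN. The number with an unadjusted p below 0.05 was 0 in the DMH, 0 in the MBH and 1 in the PVN, against 12.2%, 7.06% and 5.24% of all gene symbols, and DESeq2 called 0. In the PVN this was Hcrt, which differed by -1.62 on the log2 scale (SE 0.77, edgeR unadjusted p = 0.0393, adjusted p = 0.874), and from -2.60 to -0.34 when animals of 1 replicate number were left out. In the DMH the log2 changes were 1.23 (SE 0.98) for Hcrt, 1.04 for Pmch, 0.57 (SE 0.89) for Gal, -0.87 (SE 0.63) for Penk and -0.45 (SE 0.59) for Tac1. They have to be read beside a median of all gene symbols of -0.29 in the DMH, which became -0.87 with library totals as the only scaling. Weeks 12 to 20, the maintenance phase of the winter state, gave 0 members as well, against 0.889%, 0.213% and 0.0158% of gene symbols in DMH, MBH and PVN. There 0, 0 and 1 member had an unadjusted edgeR p below 0.05, against 10.1%, 5.67% and 3.98% of all gene symbols, and DESeq2 called 0.

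**Figure D2:**
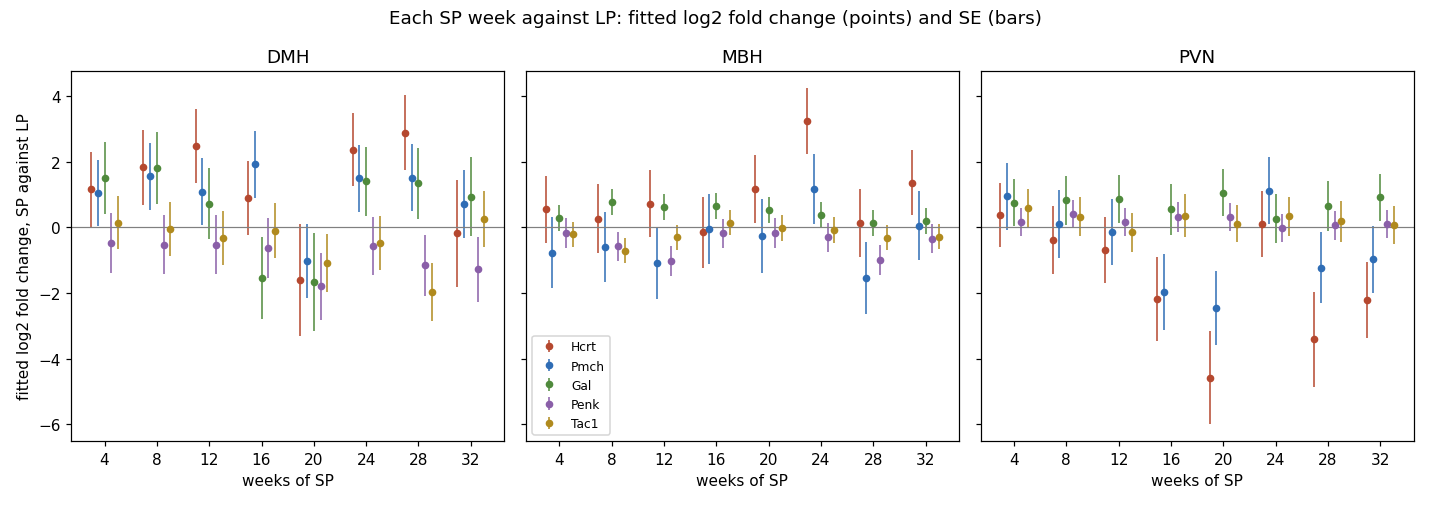
Points are fitted log2 fold changes of each SP week against LP (y axis, shared by the 3 panels) by weeks of SP (x axis), with bars of 1 SE, coloured by gene, for DMH, MBH and PVN. Gal, Penk and Tac1 stay between -1.02 and 1.06 in the MBH and PVN, whereas Hcrt and Pmch reach 3.26 (Hcrt in the MBH at 24 weeks) and -4.58 (Hcrt in the PVN at 20 weeks), with long bars.

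The DMH and MBH of the same animals could be compared directly, since both tables used 1 set of isoform identifiers. In this comparison, which had the animal as a block, 58% of 9527 gene symbols were called and 54.2% were lower in the DMH, with a median difference of -0.70 on the log2 scale. All 5 members were called, in opposite directions. Hcrt and Pmch were higher in the DMH, and Gal, Penk and Tac1 were higher in the MBH. The sign for Hcrt and Pmch depended on the scaling. On library totals without TMM the median difference of all gene symbols moved to -3.05, 9449 of 9527 were called with 24 of them higher in the DMH, and Hcrt and Pmch stood at -0.43 (SE 0.57, edgeR adjusted p = 0.448) and -0.69 (SE 0.63, edgeR adjusted p = 0.279). The differences are therefore also given relative to the median gene symbol of the same fit.

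For Pmch the median CPM on the joint scale was 19.9 in the DMH and 4.70 in the MBH, and 35 of 54 animals were higher in the DMH. The log2 difference was 1.96 (SE 0.51, edgeR adjusted p = 0.00143). For Hcrt the medians were 0 and 0.356, with 25 animals higher in the DMH, 19 higher in the MBH and 10 equal, while the log2 difference was 1.73 (SE 0.48, edgeR adjusted p = 0.00298). The mean of Hcrt, 3.02 CPM in the DMH and 0.905 in the MBH, thus went with the fit and its median did not, because a few DMH libraries were high. Both were called in 13 of 14 settings, library totals being the exception. Relative to the median gene symbol, Hcrt lay 2.44 and Pmch 2.66 toward the DMH, and over the 14 settings, library totals included, these distances ran from 2.18 to 2.94 for Hcrt and from 1.87 to 3.12 for Pmch.

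Gal was the most unequal member. Its medians were 0.576 CPM in the DMH and 19.1 in the MBH, 48 of 54 animals were higher in the MBH, and the log2 difference was -3.27 (SE 0.35, edgeR adjusted p = 3.75e-11). Among genes of the arcuate list, Npy differed by -6.68, Agrp by -5.34, Pomc by -3.06, Cartpt by -2.26 and Tac2 by -1.07. Gal lay within that range, nearest to Pomc. Relative to the median gene symbol Gal was at -2.56, and between -2.88 and -1.76 over the 14 settings, in each of which it was called. Penk (medians 5.62 and 14.4 CPM, 38 animals higher in the MBH) differed by -0.81 (SE 0.28, edgeR adjusted p = 0.0136), and Tac1 (10.4 and 17.6, 36 animals) by -0.63 (SE 0.27, edgeR adjusted p = 0.0492). Those last differences lie close to the -0.70 of the median gene symbol. Of 14 settings tried, Penk was called in 12 (range -3.45 to -0.19) and Tac1 in 10 (-3.13 to 0.05), and relative to the median gene symbol they ran from -0.40 to 0.25 and from -0.17 to 0.48. Both were lost without the animal block and with only libraries of at least 5000 gene symbols, where Tac1 stood at 0.05.

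Whether the SP response differed between the dissections was tested by the interaction of dissection and group. None of the 5 members passed, with unadjusted edgeR p between 0.199 for Pmch and 0.835 for Penk, 0 of 5 below 0.05, and the test called 0% of gene symbols. For the mean over SP weeks it called 0.0105%, and 0 members.

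**Figure D3:**
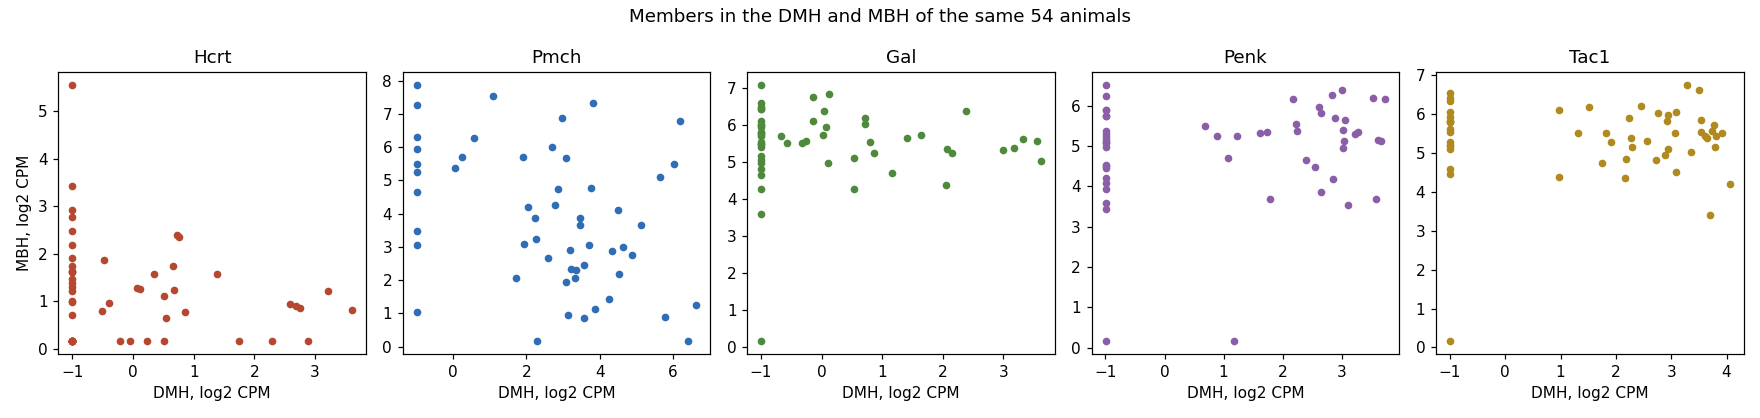
Each point is 1 of 54 animals, with log2 CPM (prior count of 2) in its DMH library on the x axis and in its MBH library on the y axis, each scaled within its own table, 1 panel per gene. Points of Gal, Penk and Tac1 form flat bands, while for Pmch the animals high in 1 dissection tend to be low in the other.

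The levels were next compared between animals, to see how the dissections vary. Hcrt and Pmch rose and fell together in every dissection. Across 54 animals Pearson's r was 0.60 in the DMH (Spearman's rho 0.57), 0.66 in the MBH (rho 0.65) and 0.77 in the PVN (rho 0.75), each with a permutation p of 1e-05, the smallest that 100000 permutations give. Adjusted over 25 relations in DMH and MBH, p was 8.33e-05, and over 10 in the PVN 5e-05. Without the 2 animals farthest from the median of the x measure r was 0.55, 0.61 and 0.73. With the number of gene symbols read regressed out it was 0.44, 0.69 and 0.76. The 2 genes share libraries and their depth, and no value here tells whether they rose in the same cells.

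**Figure D4:**
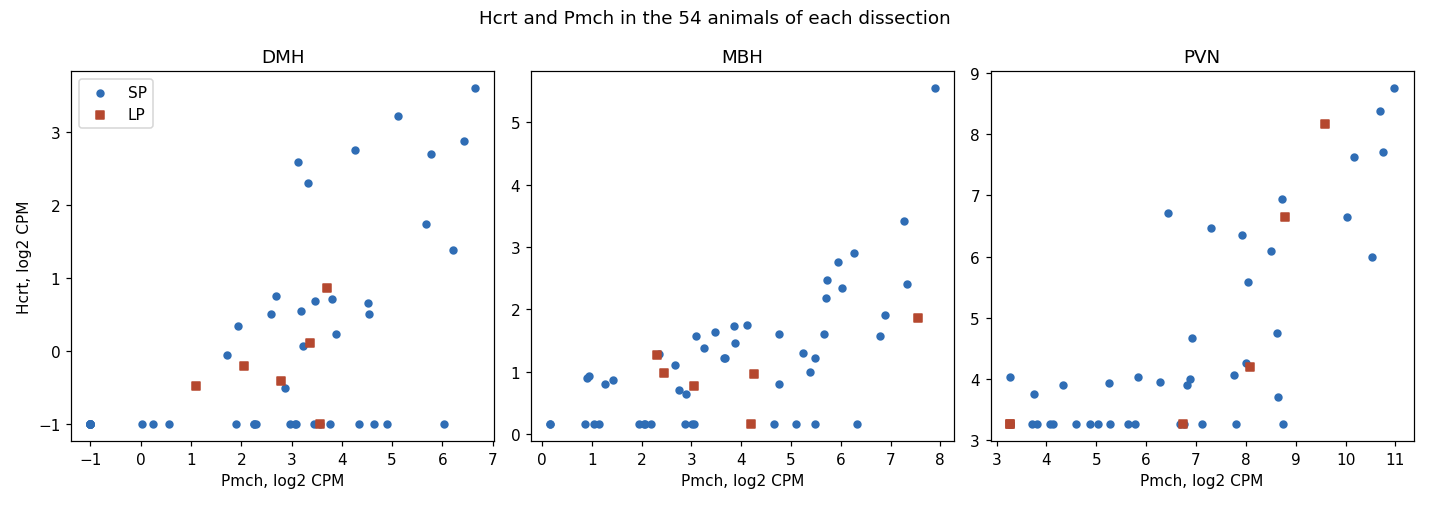
Log2 CPM (prior count of 2) of Hcrt (y axis) against Pmch (x axis), 1 point per animal, squares for LP and circles for SP, 1 panel per dissection. Hcrt lies above its floor mostly in animals with more Pmch, in LP as in SP, with r = 0.60, 0.66 and 0.77 in DMH, MBH and PVN.

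In the PVN libraries the members fell into separate sets. Hcrt and Pmch had r between -0.02 and 0.11 with Gal, Penk and Tac1, with permutation p from 0.447 to 0.906 and adjusted p from 0.812 to 0.906. Gal with Penk had r = 0.65 (rho 0.58), Penk with Tac1 0.58 (rho 0.41) and Gal with Tac1 0.50 (rho 0.42), with permutation p of 1e-05, 2e-05 and 0.00015 and adjusted p of 5e-05, 6.67e-05 and 0.000375. Without the 2 farthest animals they were 0.57, 0.46 and 0.41. Animals whose PVN punch held much of the lateral hypothalamic pair thus did not hold more of the other 3 peptides to a degree that could be measured.

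In the DMH all 10 pairs had an adjusted permutation p below 0.1, with r from 0.30 (Hcrt and Tac1) to 0.76 (Penk and Tac1, rho 0.68). The levels there also went with the number of gene symbols read, with rho of 0.62 for Hcrt, 0.42 for Pmch, 0.58 for Gal, 0.85 for Penk and 0.67 for Tac1 over 54 libraries. With that number regressed out, Hcrt with Pmch (0.44), Hcrt with Gal (0.45), Pmch with Gal (0.41) and Penk with Tac1 (0.37) were the ones above 0.30, and Hcrt with Tac1 and Pmch with Penk turned to -0.16 and -0.10. The DMH pattern was thus partly shared with a measure of library quality, whose part in it was not tested further.

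In the MBH, Penk and Tac1 went together (r = 0.57, rho 0.48, permutation p = 0.00056, adjusted p = 0.0015; 0.51 without the 2 farthest animals). Gal with Penk had r = 0.57 but rho 0.25, and 0.26 without 2 animals. Gal with Tac1 had r = 0.52 but rho -0.02, and 0.04 without 2 animals, so both of these relations rested on those animals. The animal in which all 3 were at 0 was replicate 2 at 20 weeks, whose library held 5996 counts. With libraries of at least 100000 counts, Gal and Tac1 had r = -0.03.

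**Figure D5:**
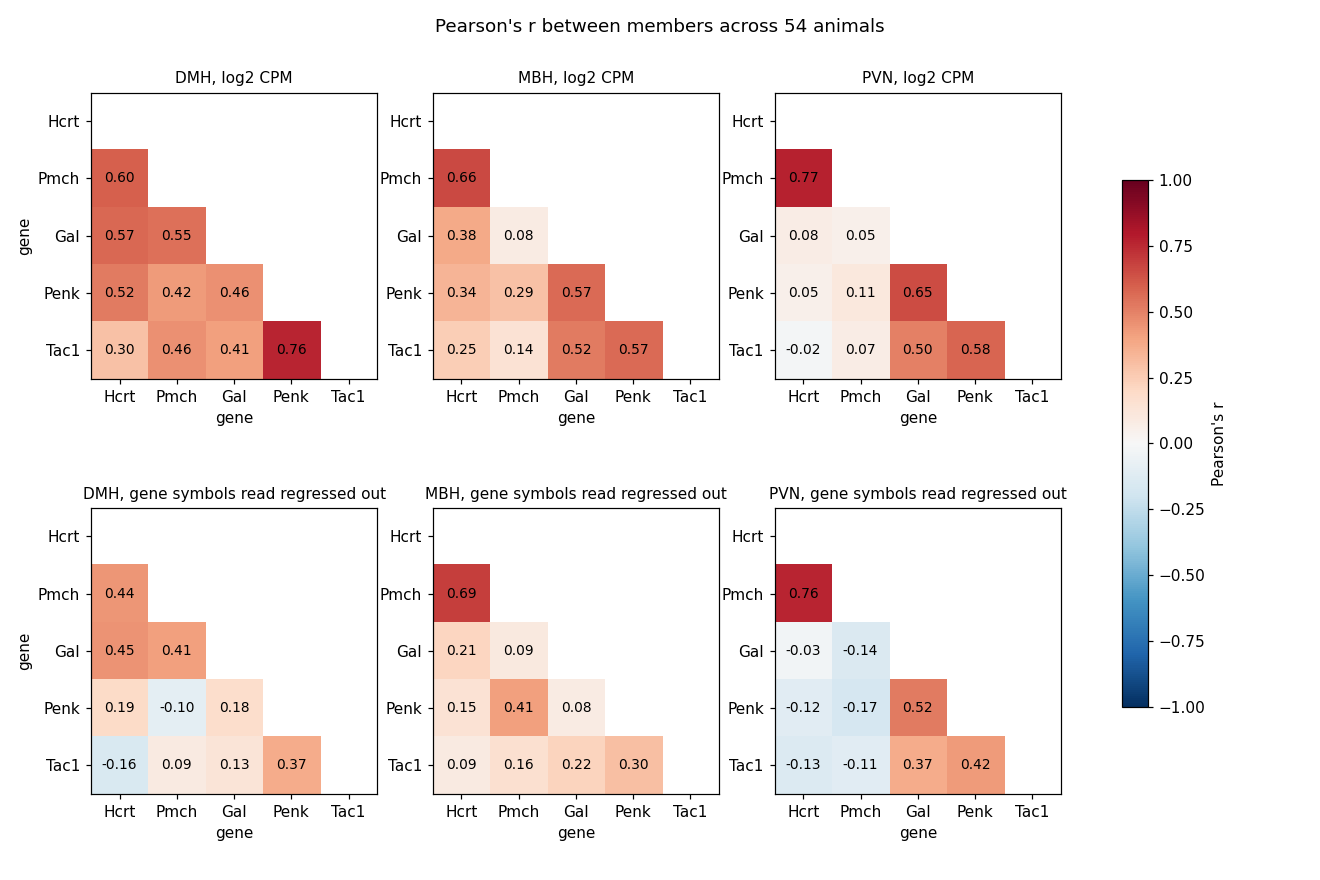
Pearson's r between the 5 genes across 54 animals (x and y axes name the genes; colour and number give r) for DMH, MBH and PVN, above from log2 CPM and below after the number of gene symbols read was regressed out. Hcrt with Pmch keeps r of 0.44 to 0.76 in the lower row, while most other DMH pairs fall below 0.30.

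Between dissections of the same animal, Pmch went in opposite directions. The DMH and MBH levels had r = -0.39 (rho -0.38, permutation p = 0.00407, adjusted p = 0.00783 over the 25 relations), and -0.43 without the 2 farthest animals. Within groups, after subtraction of each group's mean, r was -0.32. On CPM without the logarithm it was -0.14 and no longer past the threshold, with rho still at -0.38. The other 4 members had r from -0.18 for Hcrt to 0.16 for Penk between DMH and MBH, with permutation p from 0.189 to 0.932, and none of the 5 was related between PVN and either dissection (10 relations, adjusted permutation p from 0.631 to 0.944).

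Single animals differed in which dissection was high. Replicate 3 at 24 weeks had the highest Hcrt and Pmch of all 54 animals in the MBH (45.9 and 235 CPM) and in the PVN (422 and 2006 CPM), and counts of 0 for both in the DMH, where its library held 3258 gene symbols. Replicate 2 at 24 weeks had the highest DMH values (11.7 CPM from 347 counts of Hcrt and 99.5 CPM from 2954 counts of Pmch), and in the MBH it had 0.635 and 1.27 CPM, from 2 and 4 counts. Replicate 2 at 8 weeks was second in the DMH for Pmch (85.6 CPM) and had a count of 0 for both genes in the MBH. Replicate 3 at 16 weeks went the other way, at rank 3 of 54 in the DMH for Pmch (73.2 CPM from 1494 counts) and at rank 6 of 54 in the MBH (109 CPM). Both 24-week animals were sampled at the same week and differed in which punch held more Hcrt and Pmch.

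The genes whose level was most like a member's across 54 libraries were taken by Spearman's rho among 7238 symbols in the DMH and 9221 in the MBH, as a description. For Pmch the nearest was Parpbp in both (rho 0.76 in the DMH and 0.81 in the MBH), and Parpbp was also nearest to Hcrt in the MBH (rho 0.76). In the PVN its rho was 0.91 with Pmch. Parpbp encodes a PARP1-binding protein and its gene lies at the Pmch locus in mammals, and since the counting is not stated to use strand, reads of overlapping or antisense genes cannot be told apart. Its mean was 38.8 CPM in the DMH, 80.0 in the MBH and 1544 in the PVN. For Hcrt in the MBH the next were Cbln2 (0.69) and Pmch itself (0.65), and for Pmch in the MBH Pcp4 (0.64) and Cend1 (0.57). In the DMH the nearest to Hcrt were Trim27 (0.79), Sv2c (0.79) and Gpx3 (0.77), ahead of Pmch at rank 803, while Hcrt stood at rank 5 for Pmch. The ranked symbols passed a low-count filter, which Hcrt itself did not pass in the MBH. Member levels in the DMH also went with the number of gene symbols read (rho from 0.42 for Pmch to 0.85 for Penk). The part of library quality in these rankings was not tested.

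The nearest symbols to the other 3 members were taken in the same way, with the same limit from library quality in the DMH. For Gal they were Flcn, Nrsn2 and Lrrc49 in the DMH (rho 0.70, 0.70 and 0.69) and Fry, Cux1 and Ppia in the MBH (0.67, 0.60 and 0.58). For Penk they were Atp6v0c-ps2, Ddx46 and Prkar1b in the DMH (all 0.88) and Stau1, Cacnb3 and Uchl1 in the MBH (0.65, 0.61 and 0.61). For Tac1 they were Zbtb8os, Kbtbd4 and Get1 in the DMH (0.78, 0.76 and 0.75) and Chchd6, Penk and Oma1 in the MBH (0.52, 0.48 and 0.47). Penk was thus among the 3 nearest to Tac1 in the MBH.

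The receptors for these peptides and related peptide genes complete the pathway. Of 12 receptor genes for orexin, melanin-concentrating hormone, galanin, opioids and tachykinins, 10 were in the DMH table, 11 in the MBH and 9 in the PVN, and 0 passed either the F-test or the mean SP change in edgeR. DESeq2 called 0 of them, and 4, 5 and 1 had an unadjusted edgeR p below 0.05 in the F-test and 1, 1 and 0 in the mean SP change, where 14.7%, 8.01% and 6.17% and then 12.2%, 7.06% and 5.24% of all gene symbols were below it. Their median log2 change over the SP weeks was 0.07 in the DMH, 0.11 in the MBH and -0.13 in the PVN, beside -0.29, 0.01 and 0.08 over all gene symbols. All were sparse. The 3 with the highest mean CPM, which counts reads and is not per length, were the kappa opioid receptor Oprk1 (0.174), the melanin-concentrating hormone receptor Mchr1 (0.103) and the orexin receptor Hcrtr1 (0.0981) in the DMH. In the MBH they were Oprk1 (3.67), the mu opioid receptor Oprm1 (1.59) and Mchr1 (0.805). In the PVN they were Oprm1, the galanin receptor Galr1 and the tachykinin receptor Tacr3 (3.37, 2.33 and 1.499).

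Of 14 related genes, 12, 13 and 12 were measured in DMH, MBH and PVN. In the DMH the F-test called Lhx9, a transcription factor of orexin neurons (edgeR adjusted p = 0.0601), and Npvf, the RFamide-related peptide of the dorsomedial nucleus (edgeR adjusted p = 0.0875). Both were read in few DMH libraries, Lhx9 in 13 and Npvf in 9. In the MBH the mean SP change called Galp, the galanin-like peptide of the arcuate nucleus, which fell by 2.23 on the log2 scale (SE 0.52, edgeR adjusted p = 0.0437) and rests on 13 counts in 9 libraries. DESeq2 called none of the 3. Over all gene symbols the F-test called 4.64% in the DMH, 0.442% in the MBH and 0.0158% in the PVN. The mean SP change called 3.95%, 0.814% and 0.0211% in the same order. In the PVN 0 of 12 were called by either tool. At an unadjusted edgeR p below 0.05 there were 3, 2 and 3 in the F-test in DMH, MBH and PVN, against 14.7%, 8.01% and 6.17% of all gene symbols. In the mean SP change there were 2, 3 and 0, against 12.2%, 7.06% and 5.24%. The median log2 change of the related genes was 0.21, -0.07 and -0.01 in DMH, MBH and PVN, beside -0.29, 0.01 and 0.08 over all gene symbols. The related genes with the highest means were Cck, Adcyap1 and Cartpt in the DMH (13.8, 8.58 and 5.36 CPM), Cartpt, Adcyap1 and Pdyn in the MBH (102, 96.7 and 16.2 CPM) and Cartpt, Trh and Cck in the PVN. None of these passed either test.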

How the data were processed

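As the paper describes it, nanopore reads were base-called (Guppy), trimmed (Porechop) and filtered (Filtlong). They were mapped with Minimap2 to the mouse genome GRCm39 and quantified per transcript with Salmon, and rare transcripts were removed with edgeR. The paper names no other reference, but the PVN isoform identifiers shared 0 with those of the DMH or MBH. The reference behind the PVN values is therefore uncertain. In the deposited tables the values are expected counts per isoform of 54 DMH, 54 MBH and 54 PVN libraries, which were matched to samples by the animal number in the labels. The pituitary libraries were not used here.

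Isoform counts were summed per gene symbol and rounded. Hcrt and Pmch have 1 isoform each. Gal and Penk have 2 and Tac1 has 3 in the DMH and MBH, with nearly equal counts, so their sums may count reads more than once. Each table was fitted as a whole in edgeR 4.0.16 (R 4.3.3) with TMM scaling, no filter, 9 groups and the quasi-likelihood F-test. P-values were adjusted by Benjamini-Hochberg over all symbols, with a false discovery rate of 0.1. DMH and MBH were compared in a joint fit of 108 libraries, with the animal as a block and filterByExpr. Single weeks were also compared by 2-sided exact permutation (scipy 1.17.1). Correlations used log2 CPM with a prior count of 2 and 100000 permutations.

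Alternatives were DESeq2 1.42.0 and its size factors, the edgeR version 4 test, a low-count filter, the highest isoform, omission of small or gene-poor libraries or of the most abundant symbol, omission of each replicate number, a replicate block and library totals without TMM. The omission of gene-poor libraries, library totals without TMM, the replicate block for correlations, the regressions on gene symbols read and the PVN relations were chosen after seeing the data. The fits were tested on simulated data. Depth ran from 159 to 13208364 counts per library, and a count of 0 allows up to 3 counts. Such limits cover counting error only, since reads came from PCR without molecular identifiers. Libraries of a group are different animals. For members and for lists of receptors, related genes and markers, the lists were chosen with earlier results of these data known. Named besides the members were list genes past a test, the 3 list genes with the highest mean CPM and the 3 symbols most like each member by Spearman's rho.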

Additional observations from a re-analysis of the deposited data

Results flagged for a closer look

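In groups of 6, a library was marked when its gap to the nearest other library exceeded Dixon's 95% critical share of the group's range on log2 CPM. This happened in 21 of 135 groups, which involved 17 libraries. The critical value is set for about 1 in 20 groups of normally distributed values, and many groups here held tied counts of 0. Where all other libraries were at 0, 1 count was enough to be marked, as for Hcrt in the DMH at 20 weeks. The share of marked groups can therefore not be compared with 1 in 20.

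Hcrt stood out upward in 7 groups. In the DMH the libraries were replicate 1 at 20 weeks of SP (0.550 CPM, 1 count), replicate 2 at 24 weeks (11.7 CPM, 347 counts) and replicate 4 at 32 weeks (1.08 CPM, 3 counts). In the MBH it was replicate 5 at 28 weeks (3.99 CPM, 7 counts). In the PVN they were replicate 2 at 12 weeks (186.5 CPM), replicate 2 at 16 weeks (38.4 CPM) and replicate 2 at 28 weeks (71.9 CPM, 4 counts). The smallest of these rest on 1, 3, 4 and 7 counts.

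Pmch stood out upward in LP replicate 1 of the MBH, at 186 CPM with the other 5 libraries at 3.86 to 17.9, and in replicate 2 at 16 weeks of the PVN, at 253 CPM. Gal stood out upward in the DMH in replicate 1 at 12 weeks (7.47 CPM), replicate 2 at 24 weeks (11.8 CPM) and replicate 6 at 28 weeks (9.48 CPM). Replicate 2 at 24 weeks in the DMH and replicate 2 at 16 weeks in the PVN were each marked for 2 genes.

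The other 9 stood out downward. Penk was low in the MBH in replicate 2 at 8 weeks (11.7 CPM, 3 counts), and at 0 CPM in replicate 2 at 20 weeks and replicate 1 at 24 weeks. Gal and Tac1 were also at 0 CPM in the MBH of replicate 2 at 20 weeks, a library of 5996 counts. Tac1 was at 0 CPM in the DMH of replicate 2 at 16 weeks and in the PVN of replicate 5 at 8 weeks, and Penk was at 0 CPM in the PVN of LP replicate 1, with 159 counts in all, and of replicate 3 at 16 weeks.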

How the results depend on the processing

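The limits are those of sparse counts and uneven libraries. Most Hcrt values rest on fewer than 10 counts, and 21 DMH libraries held fewer than 5000 gene symbols. Over the alternatives, 229 counts of calls were equal to the main count or within 1.5 times of it. Another 20 were not, which are given here. Many main counts of members were 0, and there an unchanged count is 0 against 0, which is no measure of stability. For counts of all gene symbols past the threshold, 126 did not stay within 1.5 times. For single members and relations, 24 values crossed the threshold upward, 35 crossed it downward and 6 reversed in sign. A sign that turned in a value that was never past its threshold was not counted as a reversal. The cause of each change was not tested unless stated.

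With no member called across the 9 groups, the highest isoform in place of the sum gave 1 in the DMH, 3 in the MBH and 2 in the PVN, and over single weeks 1, 4 and 5. It also gave 1 for the PVN mean of the SP weeks and 2 for weeks 12 to 20. In that fit the trended dispersion of Hcrt fell from 0.234 to 0.0685 in the PVN and the prior degrees of freedom became infinite in the MBH and PVN, where Pmch had a deviance per degree of freedom of 20.7 and 16.4. Hcrt and Pmch have 1 isoform, so their counts were the same. The version 4 test called 1 member (Hcrt) in the MBH and 1 (Hcrt) in the PVN, and library totals 1 (Hcrt) in the MBH. Leaving out each replicate number gave 0 to 1 in the DMH, with Hcrt called without replicate 2 (edgeR adjusted p = 0.0752).

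The count of all gene symbols past the threshold was less stable. For the DMH mean of the SP weeks it was 862, and 37 with a filter, 0 in DESeq2, 139 in the version 4 test, 148 for the highest isoform, 439 with the replicate block, 57 with gene-poor libraries left out and 1320 with library totals. In the MBH it was 164, and 7 in DESeq2, 8 with a filter and 62 in the version 4 test. The DMH F-test called 1012, and 9 with a filter, 1 in DESeq2 and 1941 with library totals. Leaving out each replicate number gave 106 to 809 in that test and 12 to 31 in the MBH F-test, and for the mean of the SP weeks 479 to 1244 in the DMH and as few as 77 in the MBH. In the MBH the F-test called 89, from 4 with a filter to 250 with library totals, and in the PVN 3, from 0 to 83. No DMH library was under 10000 counts, so that alternative was not run there, and the most abundant symbol was not in the PVN table.

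Replicate numbers mark different animals, and the labels do not say what else animals of 1 number share. Same-numbered libraries of different groups had a median correlation of deviations of 0.08, 0.04 and 0.05 in DMH, MBH and PVN, and 89, 48 and 50 pairs were over 0.1. The replicate block called 2 members in the PVN F-test, Hcrt (edgeR adjusted p = 0.00919) and Pmch (0.0804), and changed no other count of members. With it, the gene symbols called for the mean of the SP weeks fell from 862 to 439 in the DMH and from 164 to 14 in the MBH. For correlations, the block gave 1 relation between the PVN and another dissection (Hcrt in MBH and PVN, r = 0.40) and left Pmch between DMH and MBH at r = -0.26 (adjusted permutation p = 0.0787).

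Between DMH and MBH, 5 members were called, and 3 without the animal block or with libraries of at least 5000 gene symbols, where Tac1 reversed to 0.048. Library totals also left 3, with 9449 gene symbols called in place of 5523, and there Hcrt reversed to -0.434 and Pmch to -0.688, neither past the threshold. Of 25 relations between members, 19 had an adjusted p below 0.1 for r, and 8 on CPM without the logarithm or with the number of gene symbols regressed out. In the latter r reversed for Hcrt with Tac1 (-0.16) and Pmch with Penk (-0.10) in the DMH, and with libraries of at least 100000 counts for Gal with Tac1 in the MBH (-0.030). On CPM 1 relation between the PVN and another dissection passed, Hcrt in MBH and PVN (r = 0.62, and 0.13 without 2 animals).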

Other observations

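Genes with a known address gave a frame for the comparison of DMH and MBH punches of the same animals. The arcuate genes Npy, Agrp and Pomc differed by -6.68, -5.34 and -3.06 on the log2 scale. Cartpt and Tac2, also of the arcuate list, differed by -2.26 and -1.07, and the ventromedial genes Fezf1 and Nptx2 by -5.05 and -1.85. All were lower in the DMH, with Tac2 closest to the median of all symbols (-0.70). The thalamic kinase gene Prkcd was 2.11 higher in the DMH (SE 0.59, edgeR adjusted p = 0.00338), while Tcf7l2, also of thalamus, differed by -0.21 (edgeR adjusted p = 0.759). Nts, a peptide gene of the lateral hypothalamus among other places, differed by -1.53 (edgeR adjusted p = 1.29e-05), opposite in sign to Hcrt and Pmch. Cck, read in the dorsomedial nucleus and in thalamus and cortex, was 2.09 higher (SE 0.31, edgeR adjusted p = 3.28e-07). Parpbp, which followed Pmch across animals, was 1.73 higher (SE 0.71, edgeR adjusted p = 0.0377), beside 1.96 for Pmch. It was not called without replicate number 1, 2 or 6 (edgeR adjusted p = 0.122, 0.190 and 0.146). Since it lies at the Pmch locus, its value may not be separate from that of Pmch. On library totals Cck and Parpbp turned to -0.52 and -0.75 and Prkcd stood at 0.12, none of them called, beside a median of -3.05 over all symbols. The opioid peptide gene Pdyn differed by -2.58 (-5.04 on library totals), while Penk, at -0.81, was near the median of all symbols.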
